A study of Mus musculus with 2 samples.

Results

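The genes described here handle iron inside the cell, and 9 of the 10 could be measured in cultured neutrophils with and without the microRNA miR-223. They are the metalloreductases Steap3 and Steap4, the transferrin receptor Tfrc, the ferritin chains Fth1 and Ftl1, the heme oxygenases Hmox1 and Hmox2, the ferroxidase Cp, and the iron regulatory proteins Aco1 and Ireb2. They were chosen by symbol, as all probe sets that the platform annotation names for 1 of these genes alone. Of 18193 genes measured in this way, 9 belong to the group, with 27 probe sets between them. Ftl1 has 3 probe sets, each named together with at least 1 other gene, so it has no value here. The group was put together with earlier results of these data known, Steap4's among them, so its values are a description.

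The tested cells were neutrophils grown from bone marrow progenitors of male C57BL/6 mice with the mir-223 knockout, and the control cells were grown in the same way from wild-type male mice of that strain. Both cultures were kept for 6 days in medium containing the granulocyte growth factor G-CSF and the progenitor growth factor SCF. Both received cycloheximide, which blocks translation, at 100 ug/ml for the last 8 min. Total RNA of each genotype was hybridised to 1 Affymetrix 3' array, so there is no replicate, no test was run, and each difference compares these 2 arrays. The labels name neither the knockout allele nor the number of mice behind a culture.

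Iron enters most cells bound to transferrin, which Tfrc carries into endosomes. STEAP proteins there and at the cell surface reduce ferric to ferrous iron, the form that transporters move. Ferritin stores iron in a shell of heavy (Fth1) and light (Ftl1) chains, and heme oxygenases release it from heme. Aco1 (IRP1) and Ireb2 (IRP2) bind stem-loops in messenger RNAs when iron is scarce, which blocks translation of ferritin and stabilises the transferrin receptor message.

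The microRNA that the knockout lacks lies on the X chromosome. No probe set was named for it (0 of 45101), so its absence could not be checked on these arrays. Its 3p mature strand is shown because it belongs to the gene that the knockout targets. It is the RefSeq entry at chrX:96242884-96242905 on the plus strand of GRCm38.p6, and capitals mark the seed, bases 2 to 8, with which a microRNA pairs to its targets.
mmu-miR-223-3p: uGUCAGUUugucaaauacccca

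Intensities are given as deposited. Each difference is the knockout's log2(intensity + 16) minus that of the wild type, a scale that shrinks the differences of dim genes. A gene takes its probe set with the highest mean, and counts as expressed when that mean reaches the median of all probe sets on the array, an intensity of 33.9. All 9 measured genes were expressed. As a yardstick, expressed probe sets that share a gene scattered around its mean difference with an SD of 0.144, pooled over 5017 genes. It is called the probe-set SD below and is no replicate error.

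Steap4 was the gene of the group that differed most, and it was higher without miR-223. Aco1 and Fth1 were also higher, and Cp was lower. By their chosen probe sets, Steap3, Tfrc, Hmox1, Hmox2 and Ireb2 stayed within the probe-set SD. In all, 5 of the 9 genes were higher and 4 lower on the scale as deposited. Their median difference was 0.04. Over the 11006 expressed genes the median was -0.00037, and 49.7% were above 0. Beyond the probe-set SD lay 4 of the 9 (3 higher, 1 lower), against 34.3% of all expressed genes (18.8% higher and 15.5% lower), so the count stands close to the background. None of the 9 reached 2-fold, a size that 0.0999% of expressed genes reached upwards and 0.0454% downwards.

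**Figure D1:**
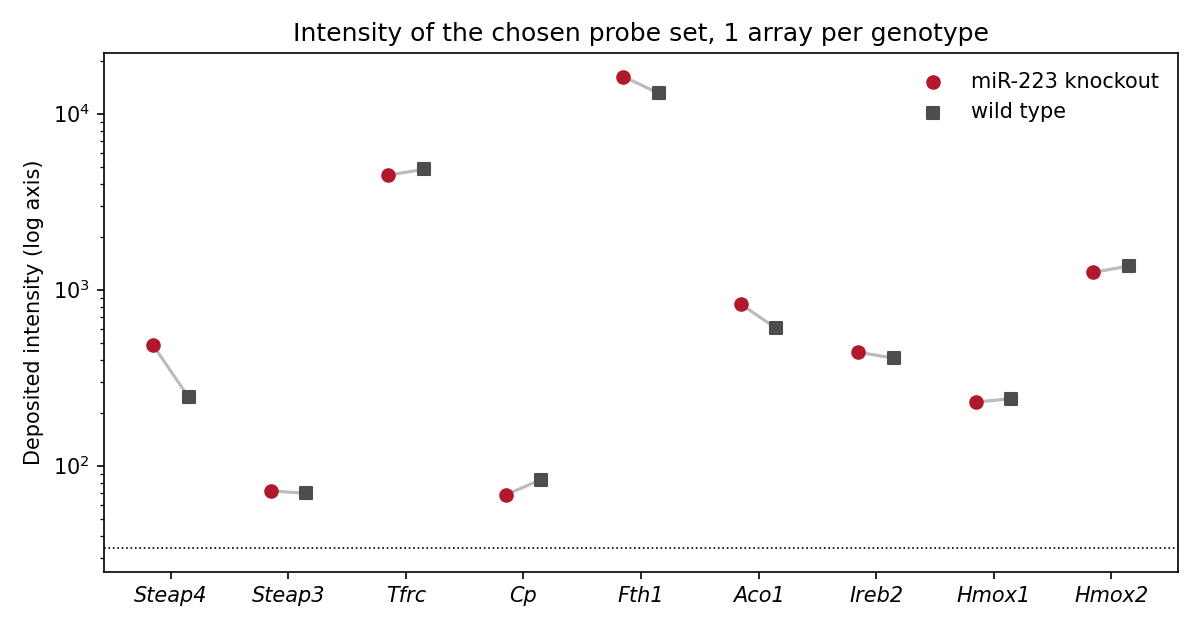
Deposited intensity (log axis) of the chosen probe set of each of the 9 genes on the miR-223 knockout array (circles) and the wild-type array (squares), 1 array each. The dotted line is the expression cut of 33.9. Steap4 shows the widest step, 482 against 245. Levels of different genes come from different probes and are not comparable with each other.

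Among the reductases, Steap4 was clearly higher on the knockout array and Steap3 was nearly level. Steap4, a metalloreductase of iron and copper known for its response to inflammatory cytokines and feeding, had an intensity of 482 on the knockout array and 245 on the wild-type array. The ratio was 1.97 and the difference 0.93, which 13 expressed genes including Steap4 reached (0.118%). Its dimmer probe set gave 163 in the knockout and 90.3 in the wild type, a difference of 0.75. Both probe sets thus showed the knockout array higher, and both carry the suffix of probes that match several transcripts of 1 gene. At 0.5 or more on the log2 scale Steap4 was the only gene of the group by its chosen probe set, where 1.13% of expressed genes were as high.

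Steap3, the main ferrireductase of endosomes in red cell precursors, had an intensity of 71.9 in the knockout and 69.5 in the wild type, a difference of 0.04. The 2 genotypes were thus nearly level on its 1 expressed probe set. Its other 2 probe sets were below the expression cut and differed by 0.05 and -0.06. The differences of Steap4 and Steap3 were 0.89 apart. The remaining STEAP genes, Steap1 and Steap2, were not expressed, at intensities of 20.8 and 28.3 in the knockout and 22.6 and 27.9 in the wild type.

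Because Steap4 carries the largest difference, the 250 bases before its start site are shown from RefSeq (chr5:7960222-7960471, plus strand, GRCm38.p6). Capitals mark, in this order, the match to the STAT motif TTCNNNGAA, which begins 116 bases before the start site, and the match to the C/EBP motif TTGCNNAA, which begins 87 bases before it.
Steap4: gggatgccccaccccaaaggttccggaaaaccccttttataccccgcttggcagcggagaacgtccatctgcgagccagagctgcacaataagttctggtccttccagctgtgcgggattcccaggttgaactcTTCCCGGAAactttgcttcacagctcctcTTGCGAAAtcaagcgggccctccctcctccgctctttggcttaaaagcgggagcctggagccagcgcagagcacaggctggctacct
STAT and C/EBP factors act in granulocytes, and these motifs were picked after this sequence had been read. Both strands of all 32851 mouse promoter windows of 300 bases (250 before and 50 after a start site) were searched. The STAT motif stood in 8.3% of them and the C/EBP motif in 10.8%. Windows of the other genes exist for Steap3, Tfrc, Fth1, Ftl1, Hmox2, Cp, Ireb2 and Aco1, 1 to 4 each, and not for Hmox1. None of them held the STAT motif. As the motif was picked from Steap4's own sequence and these windows are few, this contrast is no test. The C/EBP motif was matched in windows of Steap3, Cp and Fth1, of which Fth1 was higher on the knockout array, Cp lower and Steap3 nearly level. The antioxidant response element motif TGACNNNGC was searched because Nrf2 is known to act on ferritin genes. It stood in 12.4% of all windows and in none of the group's. Elements more than 250 bases before a start site, and any of Hmox1, could not be found by this search. The core of an iron-responsive element is a C, then any 5 bases, then CAGTG and 1 more base. It was searched on the transcribed strand of the 50 bases after each start site. Of all windows 1.55% held it, and none of the group's did. These 50 bases are only the beginning of a transcript. A match to these letters is a description of sequence and was set against no binding data.

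Iron storage was represented by Fth1, the ferritin heavy chain, which oxidises iron as it enters the shell. Its brighter probe set read 16214 in the knockout and 13033 in the wild type, a ratio of 1.24 and a difference of 0.31. On the other one the values were 11948 and 9303 in the same order, a difference of 0.36. Both probe sets were higher in the knockout by more than the probe-set SD, and 4.63% of expressed genes were as high as the chosen one. The highest intensity on either array was 31305, and whether signals this bright still follow RNA in proportion was not tested. The brighter probe set carries the suffix of sequence shared between genes, and ferritin has many near-identical copies in the genome, so its signal may not be from Fth1 alone.

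Uptake was represented by Tfrc, and its probe sets disagreed. The brightest read 4464 in the knockout and 4817 in the wild type, a difference of -0.11. The next read 744 and 664 in that order (0.16), and another read 239 and 206 (0.20). The array also carries 3 control probe sets for the 3' end, middle and 5' end of the Tfrc transcript, and they gave 0.23, 0.11 and 0.30. So 5 of 6 probe sets were higher in the knockout and the brightest alone was lower. Those at 0.16, 0.20, 0.23 and 0.30 lay beyond the probe-set SD, and the brightest lay within it. The mean was 0.08 over the 3 ordinary probe sets and 0.15 over all 6, which leaves the direction for Tfrc undecided.

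The control probe sets of Tfrc also show how far signal falls off towards the 5' end. The 3' minus 5' log2 signal of Tfrc was 1.45 in the knockout and 1.52 in the wild type. For beta-actin it was 0.25 and 0.33, and for Gapdh 0.06 and 0.15, in the same order. The 3' to 5' step was thus slightly smaller on the knockout array in all 3 transcripts. The step between the 3' and middle probe sets of Tfrc went the other way, at 1.65 in the knockout and 1.53 in the wild type. What part this has in the disagreement between Tfrc probe sets was not tested.

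**Figure D2:**
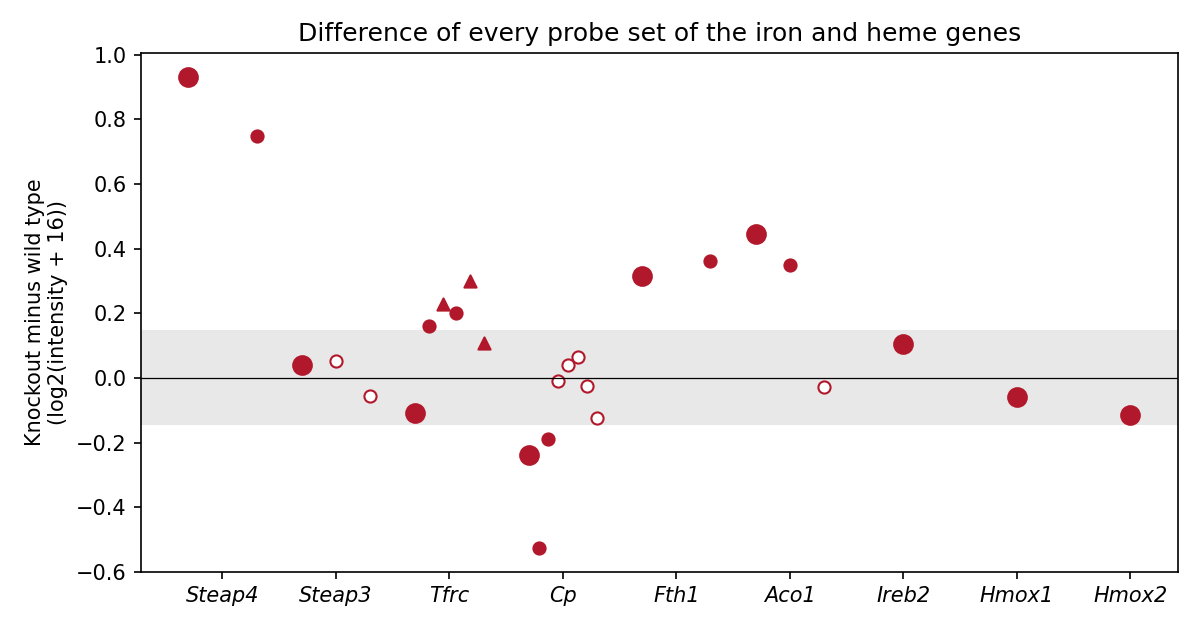
Difference, knockout minus wild type on log2(intensity + 16), of all 27 probe sets of the 9 genes. Large symbols are the chosen probe sets, filled ones are expressed, open ones are below the expression cut, triangles are the 3 array controls for Tfrc, and the grey band is the probe-set SD of 0.144 on either side of 0. Steap4, Fth1 and Aco1 have all expressed probe sets above the band, Cp has its 3 expressed probe sets below it, and Tfrc stands on both sides of 0. The dimmest expressed probe set of Cp reached the cut only through its wild-type value.

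Cp, ceruloplasmin, is a copper ferroxidase that helps load iron onto transferrin. Its brightest probe set read 68.2 in the knockout and 83.3 in the wild type, a difference of -0.24, and 5.3% of expressed genes were as low. The other 2 expressed probe sets read 43.0 and 31.0 in the knockout against 69.0 and 37.5 in the wild type, differences of -0.53 and -0.19. All 3 were lower in the knockout, but the dimmest of them lay just above the expression cut (5.65 against 5.64 as mean log2). That probe set was above the cut on the wild-type array (5.74) and below it on the knockout array (5.55). It thus counts as expressed only through the array where it is higher, and adds no support for the direction. The one at -0.53 carries the suffix of probes that may bind other sequences. The 5 probe sets under the cut ranged from -0.12 to 0.07, with the nearest at a mean log2 of 5.44. With the mean of all 8 probe sets Cp stood at -0.13, inside the probe-set SD.

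The iron regulatory proteins differed unequally. Aco1, which is a cytosolic aconitase when it holds an iron-sulfur cluster and an RNA-binding protein when it does not, read 826 in the knockout and 602 in the wild type. The ratio was 1.37 and the difference 0.45, and 1.71% of expressed genes were as high. Its second expressed probe set read 379 in the knockout and 294 in the wild type (0.35). Both were thus higher in the knockout, while the last, at 8.04 and 8.52, was below the cut and level (-0.03). The mean of all 3 was 0.26. The chosen probe set carries the suffix of probes that may bind other sequences, which the one at 0.35 does not.

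Ireb2, the regulator that is removed by protein degradation when iron is plentiful, had 1 probe set, at 440 in the knockout and 408 in the wild type. Its difference of 0.11 lay within the probe-set SD, and 25.3% of expressed genes were as high. The differences of Aco1 and Ireb2 were 0.34 apart.

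The heme oxygenases were nearly level between the arrays. Hmox1, the inducible heme oxygenase that stress and heme switch on, read 230 in the knockout and 240 in the wild type (-0.06). Hmox2, the constitutive form, read 1253 and 1359 in the same order (-0.12). Each has a single probe set, and both differences were within the probe-set SD and only 0.06 apart. Both genes were thus close to level on the arrays on which Fth1 was higher in the knockout.

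**Figure D3:**
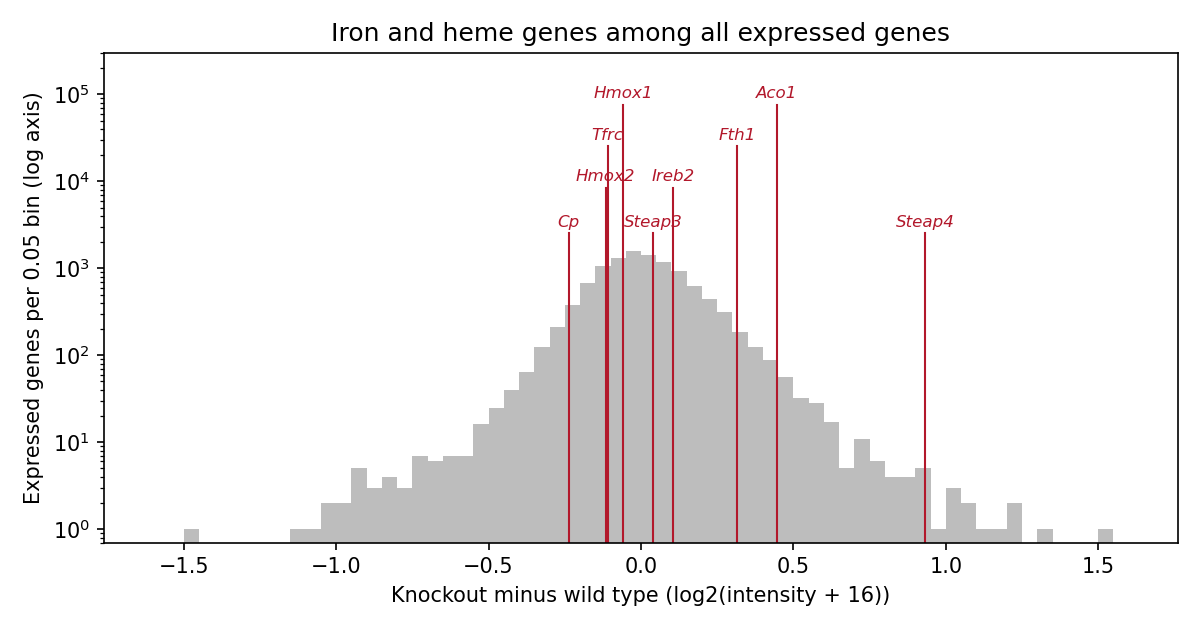
Number of expressed genes (log axis, bins of 0.05) by difference, knockout minus wild type on log2(intensity + 16), for 11006 genes. Red lines mark the 9 iron and heme genes. Steap4 at 0.93 lies in the upper tail, Aco1 at 0.45 and Fth1 at 0.31 on the upper flank, and the others between -0.24 and 0.11.

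Wider iron and heme genes were taken from 9 lists with 93 genes, of which 83 had a probe set named for 1 gene and 68 were expressed. Of these, 36 were higher and 32 lower, and the median was 0.01. Beyond the probe-set SD lay 25 (10 higher and 15 lower), beside the background of 18.8% higher and 15.5% lower. At 0.5 or more, 1 was higher and 2 were lower, where 1.13% and 0.591% of expressed genes were.

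The gene with the largest difference in the lists was Fbxl5, the iron-sensing adaptor of the ubiquitin ligase that removes the iron regulatory proteins. It read 1601 in the knockout and 894 in the wild type, a difference of 0.83 on its 1 expressed probe set. Its range under the processing alternatives was 0.80 to 0.84. Its ligase partners were level, Skp1 at -0.04 and Cul1 at -0.01. Ncoa4, the receptor that delivers ferritin to lysosomes, read 2410 in the knockout and 2426 in the wild type (-0.01). Of the 4 expressed genes on that list, Fbxl5 alone was beyond the probe-set SD.

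Iron uptake and intracellular transport was divided, with 4 of 10 expressed genes higher, 6 lower and a median of -0.03. The zinc and iron transporter Slc39a8 stood at 0.40, with 0.77 on its other probe set. Tfr2, the second transferrin receptor, stood at -0.37, with -0.29 on its other one. Among genes of iron export and systemic control, 4 of 5 were higher, with a median of 0.11. Slc40a1, the iron exporter ferroportin, read 1073 in the knockout and 992 in the wild type (0.11), within the probe-set SD. Hfe (0.26) and Smad4 (0.23) were beyond it, but other probe sets gave 0 for Hfe and -0.14 for Smad4.

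Neutrophils carry proteins that keep iron from microbes. The expressed genes on the list of siderophore and lactoferrin iron binding were level. Lcn2, which binds bacterial siderophores, read 17175 in the knockout and 16751 in the wild type (0.04). Ltf, the granule protein lactoferrin, read 15306 and 14627 in the same order (0.07). Slc22a17, a receptor for Lcn2, stood at 0.06, so all 3 expressed genes of the list were higher by less than the probe-set SD. Lcn2 and Ltf are about as bright as Fth1, and whether such signals follow RNA in proportion was not tested.

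Heme synthesis had 6 of 10 expressed genes higher, and the median was 0.08. Ppox stood at 0.26, but at -0.02 as the average of its probe sets, and Cpox at -0.20, with -0.0038 on its other expressed probe set. Both are enzymes of late steps in the pathway. Alas1, the first enzyme outside red cells, read 4887 in the knockout and 4528 in the wild type (0.11). Heme breakdown, scavenging and transport had 2 of 7 expressed genes higher, and the median was -0.04. Lrp1, a scavenger receptor that takes up heme bound to hemopexin, was higher (0.44), and the exporter Abcg2 was lower (-0.36). Blvra, which reduces the biliverdin made by heme oxygenase, was level (-0.04), and Blvrb, the other biliverdin reductase, read 228 in the knockout and 260 in the wild type (-0.18).

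Nrf2 and Bach1, the activator and repressor of Hmox1 and the ferritin genes, were measured with other Nrf2 targets. The list was divided 7 to 7, with a median of 0.0044 that turned to -0.013 under quantile normalization and -0.0028 under loess. Of the 14 expressed genes, 5 were lower and 1 higher by more than the probe-set SD, beside 15.5% lower and 18.8% higher among all expressed genes. These counts rest on 1 probe set per gene, and probe sets of some genes disagreed. Srxn1, counted as lower (-0.40), had another expressed probe set at 0.13. Slc7a11, the cystine importer, read 85.7 in the knockout and 150 in the wild type (-0.71). Nqo1, a quinone reductase, read 73.3 and 123 in the same order (-0.64). Both were lower on the knockout array, where Fth1 was higher and Hmox1 level. Nfe2l2, which encodes Nrf2, stood at 0.07, with -0.26 on its other expressed probe set, and Bach1 at 0.11.

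Assembly of iron-sulfur clusters, the group that Aco1 holds as an aconitase, had 9 of 15 expressed genes higher and 6 lower. The median was 0.02 and turned to -0.010 under quantile normalization and -0.00019 under loess. Ciao2b (0.27) and the ferredoxin Fdx1 (-0.26) differed most, and the scaffold Iscu was level (0.0043).

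**Figure D4:**
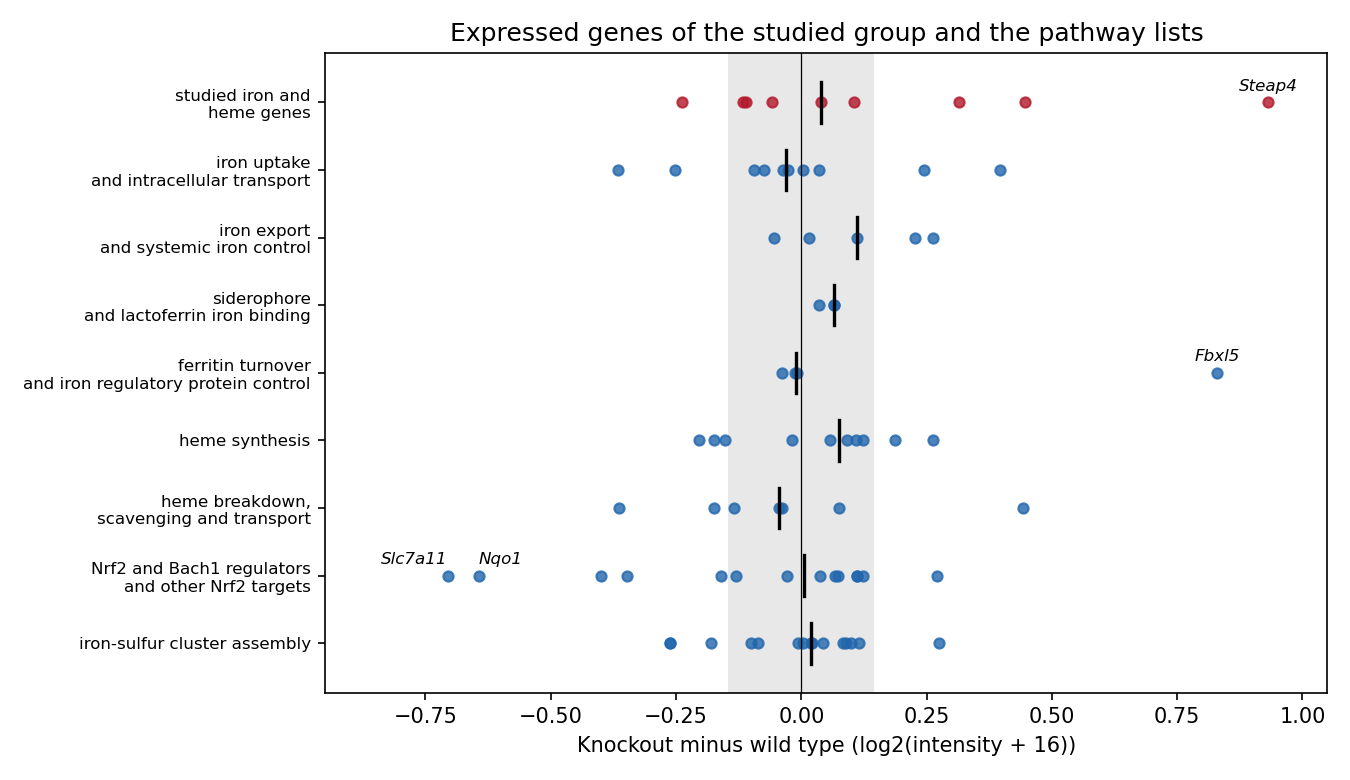
Difference, knockout minus wild type on log2(intensity + 16), of each expressed gene in the studied group (red) and in the pathway lists (blue). Black bars are medians, the grey band is the probe-set SD, and genes at 0.5 or more in size are named. Steap4 and Fbxl5 stand alone on the right, Slc7a11 and Nqo1 on the left, and the medians lie between -0.04 and 0.11. The list with Steap1 and Steap2 has no expressed gene and is not drawn.

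The cultures were checked for the cell types they could hold, since in bulk RNA fewer cells of a type and less RNA per cell cannot be told apart. Of 11 measured neutrophil markers all were expressed and 10 were higher, with summed intensities of 150903 in the knockout and 143304 in the wild type. Such sums, here and for the other cell types, add signals of different probes. The brightest markers weigh most in them, and they do not measure cell numbers. Erythroid cells, which use Tfrc and Steap3 heavily, left little signal. Of 9 measured markers 3 were expressed (1 higher, 2 lower, summed 220 and 232 in the same order). The globin gene Hba-a1 (21.1 in the knockout and 18.7 in the wild type) and Alas2 (22.1 and 25.7) were below the cut. Of 9 expressed cycling markers 3 were higher and 6 lower, with sums of 34207 and 33372 and a median of -0.03.

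Macrophages recycle heme iron and can express Hmox1, Fth1 and Slc40a1 strongly. Of 16 measured monocyte and macrophage markers 11 were expressed, 7 higher and 4 lower, with sums of 7173 in the knockout and 6622 in the wild type and a median of 0.12. Apoe (1.51) and Ly86 (0.71) differed most and were higher. The largest differences of the 4 lower ones were those of Cx3cr1 (-0.60) and Cd14 (-0.32). Cd163, Marco, Spic, Mrc1 and C1qa were below the cut. Markers of mast cells and basophils were all lower in the knockout, 10 of 10 expressed (sums of 4680 and 6722, median -0.53). So were 6 of 7 megakaryocyte and platelet markers (1321 and 2058, median -0.48) and 3 of 4 eosinophil markers (968 and 1192, median -0.53). The exceptions had the largest differences of their lists. Itgb3, the platelet integrin beta chain, read 205 in the knockout and 71.1 in the wild type (1.34, and 0.37 on its other probe set). Siglecf, a lectin of eosinophils, read 370 in the knockout and 187 in the wild type (0.92). Their part in the differences of Steap4, Aco1, Fth1 and Cp was not tested.

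The knockout array gave less signal for the spike-in controls, by a median of -0.17 for 24 poly-A probe sets (24 lower) and -0.11 for 18 hybridization probe sets (17 lower). No value was adjusted to them. Differences of that size, such as those of Tfrc, Ireb2 and Hmox2, therefore depend on the scale as deposited. So does the lower value of Cp (-0.24), which exceeds the poly-A shift by less than the probe-set SD. A scaling to the spike-ins would raise the knockout values. The lower values of Tfrc (-0.11), Hmox1 (-0.06) and Hmox2 (-0.12) are smaller than the poly-A shift. The counts of higher and lower genes, in the group and in the lists, therefore hold for the scale as deposited.

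**Figure D5:**
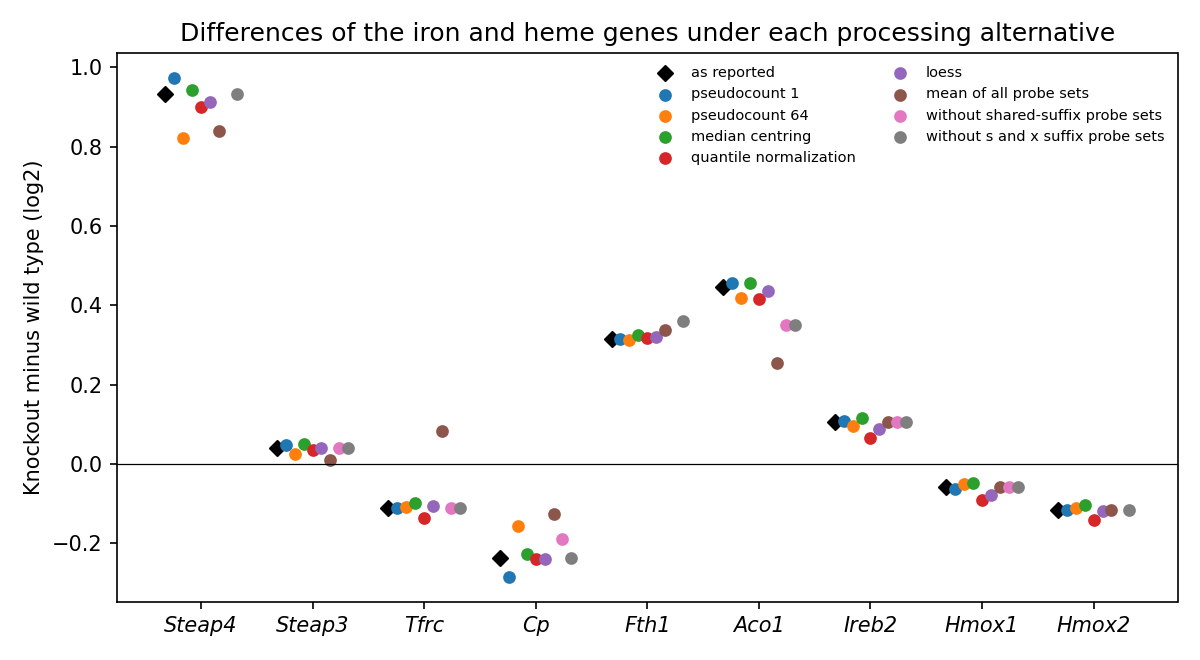
Difference, knockout minus wild type on the log2 scale, of the 9 genes as reported (diamonds) and under 8 processing alternatives (circles). Steap4 ranged from 0.82 to 0.97 and Fth1 from 0.31 to 0.36, and Tfrc was above 0 with the mean of its probe sets alone. Without probe sets of any shared suffix, Steap4, Fth1 and Hmox2 have no value.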

How the data were processed

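Both arrays, 1 per genotype, were used. Per the labels' protocols, total RNA was isolated with Trizol and labelled with the Affymetrix 3' IVT Express kit, so signals come mainly from 3' ends. The authors deposited a linear intensity for each probe set. Their background correction, summarization and scaling: not given in the sources used here. Quantiles of both arrays were near-equal (90th percentiles of 704 in the knockout and 696 in the wild type), and values were used without further scaling. Of 45101 probe sets 64 are array controls, and of the other 45037 the platform annotation gave 34945 a single gene, 932 several genes and 9160 no gene. Symbols of 34741 were matched to RefSeq (GRCm38.p6) by Entrez identifier. Sequences are from RefSeq tables.

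The group and the lists were chosen with earlier results of these data known. In each pathway list, expressed genes at 0.5 or more and the 2 largest differences were named. In each marker list the 2 largest differences, Hba-a1, Alas2 and unexpressed markers could be named. Cx3cr1 and Cd14 were added as the largest lower differences of the macrophage list. Srxn1 was added because its probe sets disagree. Cul1, Ncoa4, Slc40a1, Lcn2, Alas1, Blvra, Blvrb, Nfe2l2, Bach1, Iscu, Steap1 and Steap2 were named for their role, after their values were seen. With 1 array per genotype there was no test, and the number of arrays limits precision. Alternatives were pseudocounts of 1 and 64, median centring, quantile normalization, loess (span 0.3), averaging all probe sets of a gene, leaving out suffix classes, other expression filters and a threshold of 1.5-fold. The gene step was tested on simulated data with planted differences above 2-fold, so smaller differences, such as those of the group, were not covered. Python 3.11.15, pandas 2.3.3 and statsmodels 0.14.6 were used.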

Additional observations from a re-analysis of the deposited data

How the results depend on the processing

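Steap4 kept its direction in every alternative that gave it a value (0.82 to 0.97), as did Fth1 (0.31 to 0.36), Aco1 (0.26 to 0.46) and Cp (-0.28 to -0.13). Leaving out all probe sets with a shared suffix removed Steap4, Fth1 and Hmox2, which have no others. Leaving out only those shared between genes, an alternative chosen after seeing the data, kept Steap4 at 0.93 and gave 0.36 for Fth1 and 0.35 for Aco1. Tfrc turned from -0.11 to 0.08 with the mean of its 3 ordinary probe sets, which disagree in sign. The median of the group went from -0.0095 without shared suffixes, over 6 genes, to 0.11 at a filter at the 75th percentile. Expressed genes at least 2-fold higher (11) became 3 with a pseudocount of 64, 7 with the mean of probe sets, 7 without shared suffixes, 5 at the 75th percentile filter and 76 at 1.5-fold. Those lower (5) became 10 with a pseudocount of 1, 1 with 64 and 43 at 1.5-fold. Of 80 list medians under alternatives, 6 differed in sign, and all 80 moved by less than the probe-set SD. No paired analysis was possible because each genotype has 1 array. Dim genes near the expression cut, such as Cp, have the least signal over background.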

Other observations

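The 4 expressed genes whose values on both arrays were nearest to those of Steap4, by Euclidean distance over the 2 log2 values, were Tax1bp3 (distance 0.19, difference 1.19), Slc29a1 (0.24 and 0.88), Arhgap31 (0.27 and 0.56) and Gadd45g (0.28 and 0.75). All 4 were higher on the knockout array, which follows from choosing them by nearness to Steap4 on the same values. The measure rests on 2 arrays and on levels of different probes, so it lists neighbours and shows no shared pattern.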
